A study of Rattus norvegicus with 9 samples.

Results

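The 8 genes followed here are in common use as markers of pericytes and other mural cells: Rgs5, Cspg4, Kcnj8, Abcc9, Higd1b, Pdgfrb, Ndufa4l2 and Cox4i2. They were measured in rat adipose-derived stromal cells (ADSCs), the plastic-adherent mesenchymal cells of fat. They were chosen by symbol, and all 8 were found among the 21923 genes of the table. Poly(A)-selected RNA was measured in 9 libraries, 3 in each of 3 groups, all started from passage 4 cells of the inguinal fat of GFP-transgenic rats, whose strain, age and number the labels leave out. Vivo cells had been injected into the fat of nude mice and taken out again 7 days later. Vitro cells had gone on being grown and passaged in an incubator and were collected when the Vivo cells were. Con cells were the passage 4 culture itself. All 3 groups thus shared expansion on plastic in medium with serum and carried the GFP transgene. The labels do not say how rat cells were separated from those of the mouse host, nor whether replicates had their own animal or dish. The p-values therefore rest on the scatter among these 9 libraries, and part of that scatter may be technical.

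Pericytes are the contractile cells wrapped around capillaries, and together with smooth muscle cells they make up the mural layer of vessels. They are held there by platelet-derived growth factor B from the endothelium, which acts on the receptor encoded by Pdgfrb, and in fat they lie close to the perivascular progenitors from which ADSC cultures are thought to draw. The other genes of the panel encode a surface proteoglycan (Cspg4), the subunits of a potassium channel that sets vascular tone (Kcnj8 and Abcc9), an inhibitor of G-protein signalling (Rgs5) and mitochondrial proteins linked to low oxygen (Ndufa4l2, Cox4i2 and Higd1b). None of these genes is wholly restricted to mural cells, and Pdgfrb and Cspg4 are also found on cultured stromal cells.

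The panel split. The channel genes Kcnj8 and Abcc9 were higher in Vivo than in Vitro by 14.6-fold and 6.32-fold. Against Con neither passed in edgeR (adjusted p = 0.076 and 0.099). Cspg4 was 3.24-fold higher in Vivo than in Con and did not pass against Vitro (edgeR adjusted p = 0.36). Ndufa4l2 was lower in Vivo than in either cultured group. Pdgfrb was 1.40-fold higher in Vivo than in Vitro, a call lost in 10 of 18 alternative fits. It did not pass against Con (edgeR adjusted p = 0.63). Cox4i2 passed no test, and Rgs5 and Higd1b were at or near 0 counts in most libraries. Levels are CPM, that is counts per gene relative to the library's TMM-scaled total, and the depth was 17484607 to 18355242 counts per library. For a count of 0, 3 counts were taken as an approximate upper limit, which corresponds to 0.163 to 0.172 CPM before scaling. Differences are log2 fold changes ± SE with adjusted p-values from edgeR's quasi-likelihood test over 12364 genes, Benjamini-Hochberg adjusted, with 0.05 as the threshold. Of the 8 genes 6 had enough counts to be tested. Vivo replicate 3 stood apart: across genes its r was 0.949 and 0.951 with Vivo replicates 1 and 2, against 0.970 to 0.986 for the 7 other pairs within a group, and values without it are given beside the results it moved most.

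**Figure D1:**
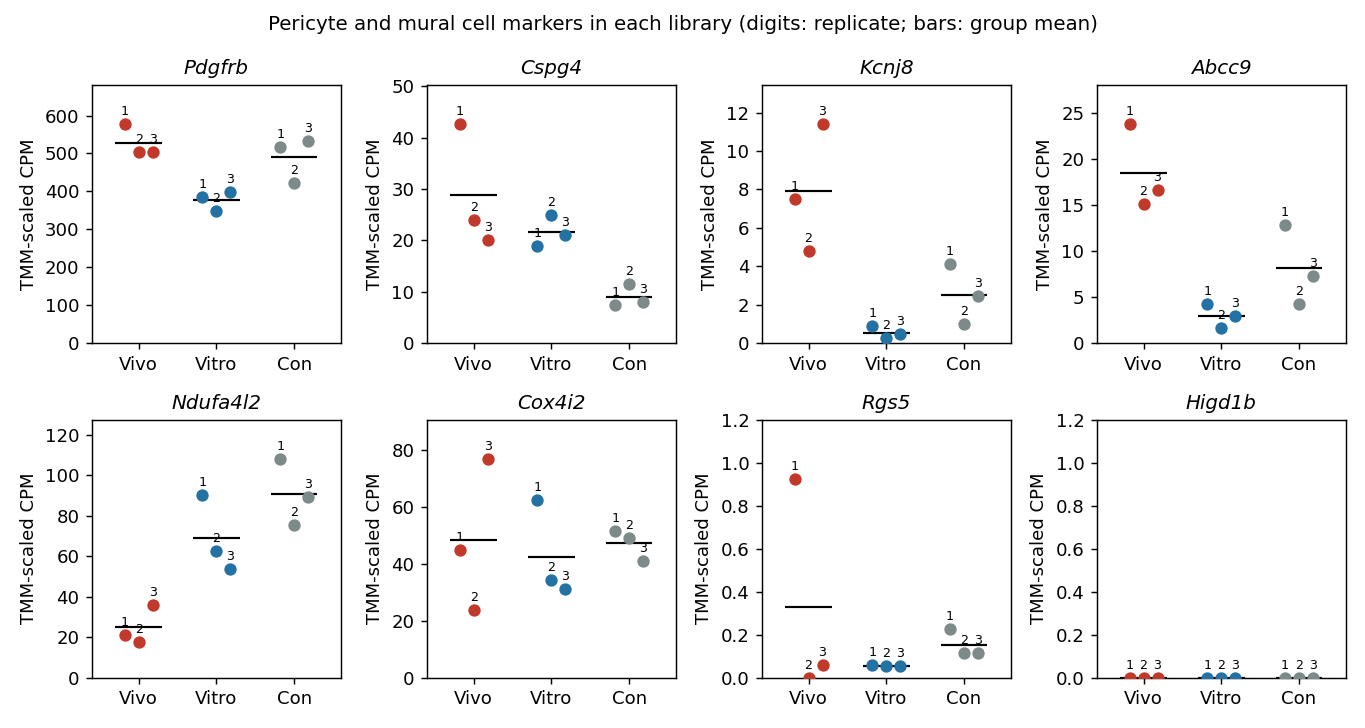
TMM-scaled CPM (y axis, linear and from 0, its range set for each gene) of the 8 genes in each of the 3 Vivo, 3 Vitro and 3 Con libraries; points are libraries, digits are replicate numbers and bars are group means. Kcnj8 and Abcc9 have all 3 Vivo libraries above all others, Ndufa4l2 has them below all others, and Higd1b is at 0 throughout.

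Of the 6 tested genes, 4 passed for Vivo against Vitro, 3 higher and 1 lower, where 10.9% of all tested genes passed (5.38% higher and 5.52% lower). For Vivo against Con 2 of the 6 passed, Cspg4 higher and Ndufa4l2 lower, where 9.73% of all genes passed (5.17% higher and 4.56% lower). These comparisons share the Vivo libraries. For Vitro against Con none of the 6 passed in edgeR, where 0.0324% of all genes passed (0.00809% higher and 0.0243% lower). An unadjusted edgeR p under 0.05 was found for 4 of the 6, and the share over all genes is not given here. DESeq2 called 3 of the 6 and 298 of all genes. With sample quality weights limma called 5 of the 6 and 2690 of all genes. The test for any difference among the 3 groups called 4 of the 6, namely Cspg4, Kcnj8, Abcc9 and Ndufa4l2, where 10.0% of all genes passed. In Vivo against Con 4 of the 6 genes had no overlap between the groups, as did 33.5% of all genes. The number was 4 in Vivo against Vitro (35.2% of all genes) and 3 in Vitro against Con (21.4% of all genes). The median log2 fold change of the 6 genes was 0.45 for Vivo against Vitro and 0.65 for Vivo against Con, and over all tested genes it was 0.02 and 0.01.

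**Figure D2:**
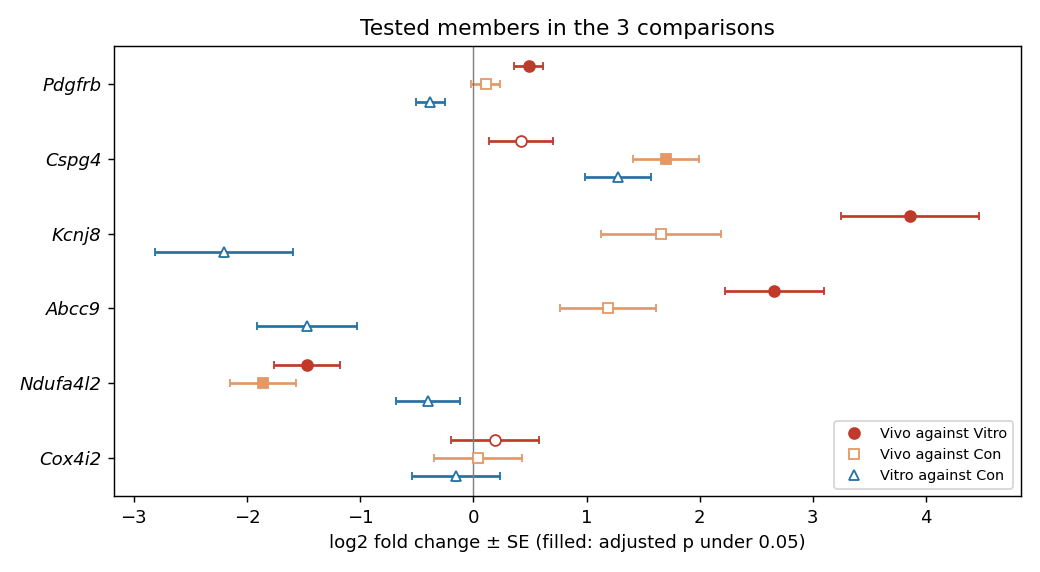
Log2 fold change ± SE (x axis) of the 6 tested genes (y axis) for Vivo against Vitro (circles), Vivo against Con (squares) and Vitro against Con (triangles); filled symbols passed an adjusted p of 0.05. Kcnj8 and Abcc9 lie right of 0 in both Vivo comparisons and left of it in Vitro against Con, Ndufa4l2 lies left of 0 in all 3, and every Cox4i2 bar spans 0.

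Pdgfrb (ENSRNOG00000018461), the receptor through which endothelial PDGF-B recruits pericytes, had 577, 504 and 504 CPM in Vivo replicates 1 to 3, against 384, 348 and 397 CPM in Vitro and 517, 421 and 532 CPM in Con. The Vivo libraries lay above all Vitro libraries and overlapped with those of Con. Per transcript length, in the deposited FPKM, Pdgfrb stood at 70.3 ± 5.28 in Vivo, 49.7 ± 3.17 in Vitro and 61.8 ± 7.52 in Con (SD, n = 3 libraries). Against Vitro it rose in Vivo by 0.49 ± 0.13 on the log2 scale (edgeR adjusted p = 0.045), a call lost in 7 of the 9 fits that left out 1 library. It held only without Con replicate 2 or without Vivo replicate 3 (adjusted p = 0.042 and 0.032), and the adjusted p reached 0.17 without Vitro replicate 2. Against Con the difference was 0.11 ± 0.13 (adjusted p = 0.63).

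Pdgfra, the related receptor that marks fibroblasts and adipose progenitors, passed no test. Per transcript length it stood at 85.6 ± 19.3 FPKM in Vivo, 63.5 ± 10.7 in Vitro and 82.0 ± 19.3 in Con. Its level was 798 ± 186 CPM in Vivo, 603 ± 122 in Vitro and 817 ± 199 in Con (SD, n = 3). The ratio of Pdgfrb to Pdgfra in FPKM was 0.824, 0.669 and 1.06 in Vivo replicates 1 to 3, against 0.659, 0.773 and 0.959 in Vitro and 0.674, 0.883 and 0.752 in Con, so that the groups overlapped. Of the ligands, Pdgfb, whose product binds both receptors, had 1 count in each Vivo library, none in Vitro and 6, 0 and 5 in Con. Pdgfa, which acts mainly through Pdgfra, fell in Vivo to 32.6 ± 1.89 CPM, against 56.0 ± 3.13 in Vitro and 56.4 ± 8.99 in Con, with a log2 change of -0.78 ± 0.14 against Vitro and -0.79 ± 0.14 against Con (edgeR adjusted p = 0.0074 and 0.0093). Pdgfc and Pdgfd, which are secreted in a latent form, did not pass: Pdgfc averaged 17.2 CPM in Vivo, 19.4 in Vitro and 13.5 in Con, and Pdgfd 40.9, 28.8 and 39.4 CPM in the same groups.

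Cspg4 (ENSRNOG00000017208) encodes NG2, a transmembrane chondroitin sulfate proteoglycan by which pericytes are commonly stained. It had 42.6, 24.0 and 20.0 CPM in Vivo replicates 1 to 3, against 18.8, 24.9 and 21.0 CPM in Vitro and 7.33, 11.4 and 7.94 CPM in Con. All Vivo and all Vitro libraries lay above every Con library, and Vivo and Vitro overlapped, with Vivo replicate 1 above the rest. Against Con it rose in Vivo by 1.70 ± 0.29 on the log2 scale (edgeR adjusted p = 0.0086), and leaving out Con replicate 3 ended the call (1.62, adjusted p = 0.051). Vitro exceeded Con by 1.28 ± 0.29, which did not pass in edgeR (adjusted p = 0.19) and passed with DESeq2 (adjusted p = 0.0061). Vivo against Vitro gave 0.42 ± 0.28 (adjusted p = 0.36), and 0.61 without Vivo replicate 3 (adjusted p = 0.16). In the order of group means, Vivo, Vitro and Con, only the outer groups therefore differed in edgeR.

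Kcnj8 (ENSRNOG00000013463) encodes Kir6.1, the pore of the ATP-sensitive potassium channel of vascular mural cells, and Abcc9 (ENSRNOG00000036960) encodes its regulatory subunit SUR2. Kcnj8 had 7.50, 4.79 and 11.4 CPM in Vivo replicates 1 to 3 (138, 88 and 200 counts), against 0.874, 0.270 and 0.478 CPM in Vitro (15, 5 and 9 counts) and 4.09, 0.962 and 2.43 CPM in Con (72, 17 and 42 counts). Every Vivo library was above every library of the cultured groups. Every Vitro library was below every Con library, though Vitro replicate 1 and Con replicate 2 were close (15 and 17 counts). Abcc9 had 23.8, 15.1 and 16.6 CPM in Vivo, against 4.25, 1.62 and 2.92 CPM in Vitro and 12.8, 4.24 and 7.30 CPM in Con. Here too Vivo was above all others, while the highest Vitro library and the lowest Con library were nearly level.

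Against Vitro, Kcnj8 rose in Vivo by 3.86 ± 0.61 on the log2 scale (edgeR adjusted p = 0.0038) and Abcc9 by 2.66 ± 0.44 (adjusted p = 0.0051). Both calls held in all 18 alternatives, in which the adjusted p reached 0.024 for Kcnj8 and 0.028 for Abcc9. The 3.16-fold and 2.28-fold higher means against Con did not pass (Kcnj8 1.66 ± 0.53, edgeR adjusted p = 0.076; Abcc9 1.19 ± 0.42, adjusted p = 0.099). With DESeq2 both passed (adjusted p = 0.020 and 0.037). Without Vivo replicate 3 Kcnj8 gave 3.49 against Vitro and 1.28 against Con (edgeR adjusted p = 0.0095 and 0.16). Vitro against Con gave -2.20 ± 0.61 for Kcnj8 and -1.47 ± 0.44 for Abcc9, which did not pass in edgeR (adjusted p = 0.23 and 0.26) and did with DESeq2 (adjusted p = 0.018 and 0.039). In bulk RNA, more cells that express a gene and more RNA of it per cell cannot be told apart.

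The channel genes also varied alike between replicates. In both Vitro and Con, replicate 1 was the highest and replicate 2 the lowest for each gene. This order in Con was not particular to them: Ndufa4l2, Pdgfra, Pdgfd and Rgs4 had it too, while Pdgfrb and Cspg4 did not. Nor was it in Vitro, where Higd1a, Rgs2, Cox4i1 and Des had it, while Pdgfrb, Cspg4 and Ndufa4l2 did not. Within Vivo the channel genes parted, since Kcnj8 was highest in replicate 3 and Abcc9 in replicate 1. The FPKM ratio of Kcnj8 to Abcc9 was accordingly 1.04, 1.13 and 2.25 in Vivo replicates 1 to 3, against 0.776, 0.642 and 0.595 in Vitro and 1.16, 0.752 and 1.26 in Con. Kcnj11 and Abcc8, which encode the Kir6.2 and SUR1 subunits of the pancreatic channel, had 0 counts in all 9 libraries.

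Kcnj8 and Abcc9 are neighbours on chromosome 4 in the RefSeq annotation of the GRCr8 assembly, with 0 annotated genes between them. Since they moved together, their promoters are shown, from 250 bases before to 50 bases after the annotated start, with that of Ndufa4l2, which moved the other way. For Abcc9 that start lies inside the outermost annotated end of the gene. Sequences are those of RefSeq on GRCr8, given 5′ to 3′ on the strand of the gene. They lie at chr4:177246499-177246798 (minus strand), chr4:177386299-177386598 (minus strand) and chr7:65241919-65242218 (plus strand). Capitals mark the motif found in them, the GC box GGGCGG, on either strand.
Kcnj8: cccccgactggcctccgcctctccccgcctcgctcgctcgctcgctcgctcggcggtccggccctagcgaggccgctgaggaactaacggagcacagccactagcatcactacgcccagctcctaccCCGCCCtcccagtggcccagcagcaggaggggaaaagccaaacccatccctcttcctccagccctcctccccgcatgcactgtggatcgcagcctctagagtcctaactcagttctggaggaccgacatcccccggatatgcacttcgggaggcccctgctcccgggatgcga
Abcc9: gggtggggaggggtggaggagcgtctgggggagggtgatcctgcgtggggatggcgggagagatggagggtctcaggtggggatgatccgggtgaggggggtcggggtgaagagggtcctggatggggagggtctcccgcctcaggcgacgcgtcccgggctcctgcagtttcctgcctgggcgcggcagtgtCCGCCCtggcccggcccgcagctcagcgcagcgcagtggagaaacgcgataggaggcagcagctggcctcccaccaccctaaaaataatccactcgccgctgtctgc
Ndufa4l2: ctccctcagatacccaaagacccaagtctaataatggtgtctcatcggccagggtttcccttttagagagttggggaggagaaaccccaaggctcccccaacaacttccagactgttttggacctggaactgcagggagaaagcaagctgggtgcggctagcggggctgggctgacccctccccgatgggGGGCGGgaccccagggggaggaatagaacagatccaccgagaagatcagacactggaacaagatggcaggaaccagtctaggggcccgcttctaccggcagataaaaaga
Each of these windows held 1 GC box, as did 33.1% of 33469 rat promoters of the same length at least once. The letters TGGGAA (the core bound by RBPJ, the DNA-binding partner of Notch), ACGTG (the hypoxia response core) and TATAAA (the TATA box) were searched on both strands without a match in the 3 windows. Of all promoters, 25.7%, 19.3% and 14.2% held them, in that order. These searches allowed no mismatch, and a match or its absence describes the letters alone. Of the 8 genes, 5 had an entry in the promoter table.

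Rgs5 (ENSRNOG00000002730), a regulator of G-protein signalling that is among the most cited pericyte transcripts, had 17, 0 and 1 counts in Vivo replicates 1 to 3, against 1, 1 and 1 in Vitro and 4, 2 and 2 in Con. Of the 18 Vivo counts 17 came from replicate 1, whose level was 0.924 CPM. It was below the count filter; in a fit with no filter it passed in no comparison, with adjusted p = 0.29 for Vivo against Vitro and 0.60 for Vivo against Con. The deposited FPKM do not follow the counts at this level, since Rgs5 was listed at 0 FPKM in Vivo replicate 3 and Vitro replicates 1 and 2, which had 1 count each, and its mean FPKM was 0.0856 in Vivo and 0.0865 in Con. Its relative Rgs2, which dampens Gq signalling in vascular cells, rose in Vivo to 142 ± 11.4 CPM against 69.5 ± 8.61 in Vitro (log2 change 1.03 ± 0.16, edgeR adjusted p = 0.0034) and stood at 134 ± 24.9 in Con (adjusted p = 0.77 for Vivo against Con). Rgs16 fell in Vivo, where its libraries ranged over 28.8 to 34.7 CPM, against 88.5 to 94.0 CPM in Vitro and 62.9 to 129 CPM in Con (-1.52 ± 0.23 and -1.59 ± 0.23, adjusted p = 0.0028 and 0.0035). Rgs4, which is also used as a pericyte marker, averaged 6.06 CPM in Vivo, 12.7 in Vitro and 22.1 in Con and did not pass (adjusted p = 0.26 against Vitro and 0.072 against Con).

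Ndufa4l2 (ENSRNOG00000031851) encodes a mitochondrial protein that is induced by hypoxia-inducible factor and restrains complex I activity, and it is highly expressed in pericytes. It had 21.1, 17.8 and 35.9 CPM in Vivo replicates 1 to 3, against 90.3, 62.5 and 53.9 CPM in Vitro and 108, 75.6 and 89.0 CPM in Con. Each Vivo library was below every library of the cultured groups, which overlapped with each other. It fell in Vivo by 1.47 ± 0.29 on the log2 scale against Vitro and by 1.86 ± 0.29 against Con (edgeR adjusted p = 0.011 and 0.0050), a 2.77-fold and a 3.64-fold lower level. Without Vivo replicate 3 the changes were -1.84 and -2.24 (adjusted p = 0.0024 and 0.0016). Both calls held in all 18 alternatives, with adjusted p up to 0.038 against Vitro and 0.023 against Con. Vitro and Con differed by -0.40 ± 0.28 (adjusted p = 0.65).

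Its ubiquitous relative Ndufa4, a subunit of cytochrome c oxidase, passed no test. Ndufa4 averaged 109.7 ± 35.9 CPM in Vivo, 88.9 ± 2.94 in Vitro and 84.7 ± 7.82 in Con (SD, n = 3; adjusted p = 0.35 against Vitro and 0.26 against Con). The FPKM ratio of Ndufa4l2 to Ndufa4 was 0.206, 0.167 and 0.204 in Vivo replicates 1 to 3, against 0.892, 0.595 and 0.528 in Vitro and 1.19, 0.678 and 0.949 in Con. Thus the Vivo libraries lay close together in this ratio and apart from all cultured libraries, also in replicate 3, where both genes were at their Vivo maximum.

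Cox4i2 (ENSRNOG00000007827) encodes the lung and smooth muscle isoform of subunit 4 of cytochrome c oxidase. It had 44.8, 23.8 and 76.9 CPM in Vivo replicates 1 to 3, against 62.5, 34.2 and 31.1 CPM in Vitro and 51.7, 49.1 and 41.0 CPM in Con. The groups overlapped, and Vivo held both the lowest and the highest library. The differences were 0.19 ± 0.39 for Vivo against Vitro and 0.04 ± 0.39 for Vivo against Con (edgeR adjusted p = 0.78 and 0.96). Without Vivo replicate 3 they were -0.33 and -0.48 (adjusted p = 0.56 and 0.36). The ubiquitous isoform gene Cox4i1 was also highest in that library, with 199.9, 198 and 380.3 CPM in Vivo replicates 1 to 3, as were Ndufa4 and Higd1a. In the FPKM ratio of Cox4i2 to Cox4i1, replicate 3 was no longer the highest: it was 0.159, 0.0893 and 0.150 in Vivo, against 0.199, 0.128 and 0.114 in Vitro and 0.147, 0.150 and 0.126 in Con.

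Higd1b (ENSRNOG00000002814), a mitochondrial gene that marks pericytes in single-cell surveys, had 0 counts in all 9 libraries. The approximate limit of 3 counts corresponds to at most 0.172 CPM in a library. Its ubiquitous relative Higd1a averaged 156 ± 60.8 CPM in Vivo, 127 ± 13.5 in Vitro and 134 ± 6.51 in Con and passed no test (adjusted p = 0.42 against Vitro and 0.56 against Con). Per transcript length, the order of the 8 genes by mean FPKM in Vivo was Pdgfrb (70.3), Cox4i2 (48.7), Ndufa4l2 (25.0), Cspg4 (3.02), Kcnj8 (2.59), Abcc9 (1.80), Rgs5 (0.0856) and Higd1b (0). In Con, Ndufa4l2 came first (87.2), before Pdgfrb (61.8) and Cox4i2 (44.0).

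**Figure D3:**
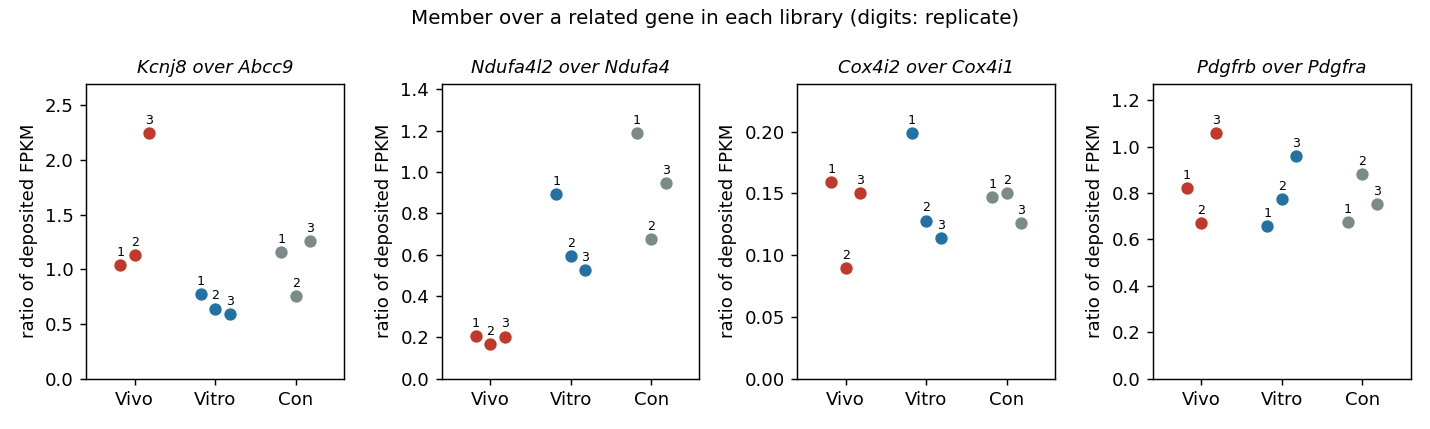
Ratio of deposited FPKM (y axis, linear and from 0) between paired genes in each of the 3 Vivo, 3 Vitro and 3 Con libraries; points are libraries and digits are replicate numbers. Ndufa4l2 over Ndufa4 is 0.167 to 0.206 in Vivo and at least 0.528 in the cultured libraries, while the groups overlap in Cox4i2 over Cox4i1 and in Pdgfrb over Pdgfra.

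A wider list of 28 genes associated with pericytes was followed for comparison, of which 27 were in the table and 22 were tested. For Vivo against Vitro 8 of the 22 were called higher and 2 lower, where 5.38% and 5.52% of all genes were, with a median log2 change of 0.71 against 0.02 over all genes. For Vivo against Con 7 were called higher and 1 lower, where 5.17% and 4.56% of all genes were, with a median of 1.07 against 0.01 over all genes. None passed in edgeR for Vitro against Con, where 0.0324% of all genes did. An unadjusted edgeR p under 0.05 was found for 6, and the share over all genes is not given here. DESeq2 called 3 of the list, all lower in Vitro, and 298 of all genes. Of the 22 genes, 7 reached 10 counts in all 3 libraries of Vivo but of no other group, namely Notch3, Ednra, Heyl, Gucy1a3, Enpp2, Plxdc1 and Art3. Their place among the tested genes leaned on Vivo, where they are high, so the counts and medians of the list are a description and these 7 genes are given by their levels alone. Among the 15 other genes 4 were called higher and 2 lower against Vitro, and 4 higher and 1 lower against Con.

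The wider list includes receptors, an enzyme and nuclear factors. Notch3, the receptor by which endothelium instructs mural cells, had 21.7, 14.8 and 6.28 CPM in Vivo replicates 1 to 3, against 0.233, 0.162 and 0 CPM in Vitro and 2.56, 0.509 and 1.68 CPM in Con. Heyl, a repressor induced by Notch, averaged 34.7 ± 8.29 CPM in Vivo, 0 in Vitro and 0.247 ± 0.0856 in Con, at least 629.8-fold above Vitro taking as floor 3 counts in the 3 Vitro libraries together. Ednra, the endothelin receptor of vascular muscle, averaged 8.72 ± 2.06 CPM in Vivo, 0.244 ± 0.194 in Vitro and 0.363 ± 0.266 in Con. Des, the intermediate filament desmin, rose by 2.20 ± 0.31 against Vitro and 1.49 ± 0.30 against Con (edgeR adjusted p = 0.0021 and 0.017), the second call being lost without Con replicate 1 (adjusted p = 0.058). Anpep, the surface peptidase CD13, which fibroblasts carry too, averaged 1174 ± 324 CPM in Vivo, 138 ± 31.0 in Vitro and 361 ± 120.0 in Con (3.09 ± 0.32 and 1.70 ± 0.30, adjusted p = 4.4e-04 and 0.0093). The forkhead factor gene Foxs1 rose by 1.62 ± 0.28 and 2.12 ± 0.29 (adjusted p = 0.0067 and 0.0030).

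Some calls on the list were fragile. Against Con, S1pr3, a sphingosine 1-phosphate receptor, rose by 0.50 ± 0.13 (edgeR adjusted p = 0.039) and lost its call in 9 of 18 alternatives. Gucy1b3 and Gucy1a3 (now Gucy1b1 and Gucy1a1 in RefSeq) encode the subunits of soluble guanylate cyclase, the nitric oxide sensor of mural cells. Against Vitro, Gucy1b3 rose by 2.05 ± 0.49 (edgeR adjusted p = 0.027) and lost its call in 4 alternatives, with adjusted p up to 0.10. Gucy1a3 had 1.64 ± 0.824 CPM in Vivo and 0 in Vitro, at least 29.9-fold higher by the same floor. The genes that fell in Vivo were Mfge8, a secreted glycoprotein, with 457 ± 108 CPM in Vivo, 1270.3 ± 57.9 in Vitro and 985 ± 164 in Con (adjusted p = 0.0014 and 0.0075), and Itga7, a laminin receptor subunit of muscle, by 1.38 ± 0.33 on the log2 scale against Vitro alone (adjusted p = 0.025, lost in 6 alternatives). By mean FPKM over all libraries the most abundant gene of the list that passed in no comparison was Ednrb, the other endothelin receptor (17.1 FPKM), followed by the transcription factor gene Ebf1 (14.7 FPKM). Ednrb had 31.1 ± 21.2 CPM in Vivo, 46.0 ± 7.54 in Vitro and 60.0 ± 12.5 in Con. Vtn, Gja4 and Gpr4 were below the filter, and Cd248 and P2ry14 had 0 counts in all libraries.

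**Figure D4:**
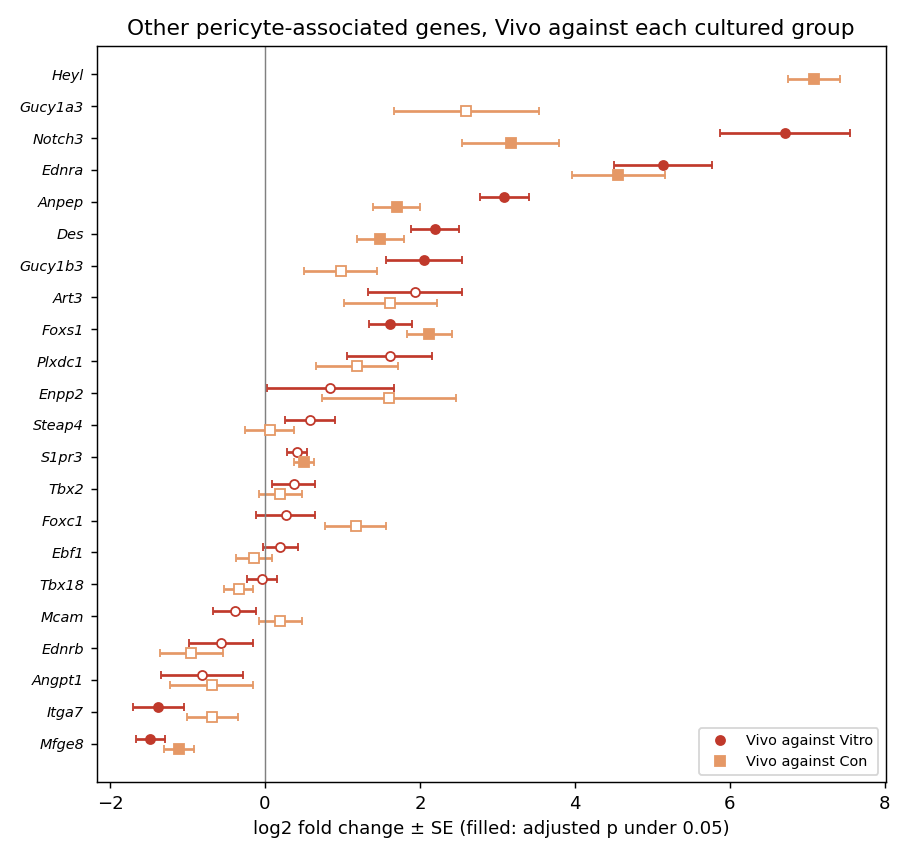
Log2 fold change ± SE (x axis) of the 22 tested genes of the wider pericyte list (y axis) for Vivo against Vitro (circles) and Vivo against Con (squares); filled symbols passed an adjusted p of 0.05. Heyl and Gucy1a3 have no circle because they had 0 counts in Vitro. Notch3, Ednra, Heyl and Gucy1a3, at the top, entered the test through Vivo, where they are high, as did Enpp2, Plxdc1 and Art3. The symbols of these genes, filled or open, are a description. Mfge8 lies at the bottom.

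Markers of other cells were read in the same libraries. Of 12 contractile genes of smooth muscle all had counts and 11 were tested. Of these 6 fell and none rose for Vivo against Vitro, where 5.52% of all genes fell, and 4 fell and none rose for Vivo against Con, where 4.56% did, with median log2 changes of -1.15 and -0.87. The second count was 8 without Vivo replicate 3. The number of all genes called for Vivo against Con also moved without 1 library, from 341 to 1706, against 1203 with all libraries. Their summed level was 3767 to 4548 CPM in Vivo, 6411 to 9293 in Vitro and 5895 to 7349.6 in Con. Myh11, the myosin heavy chain of smooth muscle, was at 9.77 ± 2.73 CPM in Vivo, 64.9 ± 40.2 in Vitro and 38.1 ± 4.32 in Con (adjusted p = 0.0025 and 0.016). The contractile genes that passed and the channel genes thus changed in opposite directions against Vitro.

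The endothelial list summed to 57.1 to 70.7 CPM in Vivo, 59.0 to 72.6 in Vitro and 50.8 to 55.0 in Con over the 11 of 12 genes analysed here. Most of it came from Egfl7, Flt1, Kdr and Tek. Cdh5, the adhesion molecule that defines endothelium, had 7 counts in the Vivo libraries together, 0 in Vitro and 24 in Con, and Cldn5 had 0 in all. Kdr rose in Vivo to 14.8 ± 2.66 CPM, against 1.34 ± 0.0519 in Vitro and 1.14 ± 0.433 in Con (edgeR adjusted p = 1.8e-04 and 2.3e-04). Flt1 fell against Vitro, to 12.6 ± 3.76 CPM in Vivo against 28.5 ± 7.92 in Vitro (edgeR adjusted p = 0.034). Of the 4 endothelial genes tested, only Kdr and Flt1 were called against Vitro, where 5.38% of all genes rose and 5.52% fell. Against Con only Kdr was called, where 5.17% of all genes rose and 4.56% fell. Of the macrophage list, 8 of 10 genes had a count in Vivo, 5 in Vitro and 8 in Con. It summed to 27.1 to 32.0 CPM in Vivo, 22.0 to 27.6 in Vitro and 21.7 to 25.3 in Con, and its top gene was Cd14 with 23.8 ± 1.66 CPM in Vivo, 21.2 ± 3.19 in Vitro and 20.6 ± 1.62 in Con. Csf1r, the receptor for the macrophage growth factor, had 3.75 to 5.08 CPM in Vivo, above all libraries of Vitro (1.34 to 3.24) and Con (1.33 to 2.10), and did not pass (1.09 ± 0.39 and 1.39 ± 0.39, edgeR adjusted p = 0.10 and 0.053). Ptprc, the pan-leukocyte marker, had 2 counts in Vivo, 0 in Vitro and 3 in Con. The adipocyte list summed to 0.436 to 1.60 CPM in Vivo, 0.638 to 1.69 in Vitro and 1.92 to 5.23 in Con. The stromal list, led by Col1a1, summed to 49305 to 50008 CPM in Vivo, 34719 to 55525 in Vitro and 52880.1 to 70011 in Con. Of its 10 genes 4 rose for Vivo against Vitro and 3 for Vivo against Con, where 5.38% and 5.17% of all genes did. Both counts include Cd34 and Dpp4, which had 15 and 2 counts in the Vitro libraries together and 17 and 11 in Con. Their place among the tested genes leaned on Vivo, where they are high, so these counts are a description. All reads were aligned to the rat genome although the Vivo host was a mouse, and the part of host cells in the levels above was not tested.

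Among all tested genes with an established symbol, those whose profile over the 9 libraries was nearest to each gene of the panel that differed among the groups were sought, by the root mean square difference of centred log2 CPM. For Kcnj8 these were Enpp3, an ectonucleotide pyrophosphatase (0.373), and Cygb, the globin cytoglobin (0.416). Enpp3 averaged 635 ± 178 CPM in Vivo, 40.3 ± 13.4 in Vitro and 128 ± 83.4 in Con. For Abcc9 they were the retinoic acid receptor gene Rarb (0.354) and Gucy1b3 (0.357), the cyclase subunit gene of the wider list. For Ndufa4l2 they were Ggt7 (0.117), of the gamma-glutamyltransferase family, and the nucleoside transporter gene Slc29a1 (0.223). Ggt7 averaged 8.41 ± 2.34 CPM in Vivo, 23.8 ± 6.95 in Vitro and 31.9 ± 3.68 in Con. For Cspg4 they were Ddias (0.302), a regulator of apoptosis after DNA damage, and Esco2 (0.304), a cohesin acetyltransferase. These are the closest among 11569 genes with such a symbol and describe likeness in these libraries alone.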

How the data were processed

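RNA was extracted with Trizol and made into stranded mRNA libraries, per the labels' protocols, and reads were aligned with HISAT2 to Rnor_6.0, per the submitters' processing notes. Neither the HISAT2 version nor the read counter and its strand setting is given in the sources used here, so reads shared with antisense or overlapping genes are uncertain. The deposited table holds unnormalised counts per gene for 9 libraries and FPKM made by the authors, per the file headers; FPKM was used for levels between genes, for ratios and for alternative fits.

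Counts were fitted in edgeR 4.0.16 (R 4.3.3) with filterByExpr, which kept 12364 of 21923 genes, TMM scaling and 1 quasi-likelihood model of the 3 groups with 6 residual degrees of freedom. SE values were derived as |log2 fold change| divided by √F. The common coefficient of variation was 0.231. The fit was tested on simulated data. Log2 CPM for profiles had a prior count of 2. Other settings were each library left out, a block for the replicate number, fits to 2 groups, DESeq2 1.42.0, size factors of its kind, a filter at 1 CPM in 3 libraries or none, and limma 3.58.1 with sample quality weights or on log2(FPKM + 1) and log2(FPKM + 0.1). Intervals from counts of 0 cover counting error only.

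Named were the 8 genes, their listed relatives and ligands, the called genes of the wider list with its most abundant uncalled gene by FPKM, and the 2 nearest profiles per gene differing among the groups. Single markers of other cell types were named after their values were seen. The members and lists were chosen with earlier results of these data known. In all, 105 of 107 listed symbols were found, older symbols through RefSeq synonyms; Foxf2 and Pecam1 were not analysed here. The result of 1 marker list is not reported here. Figures were drawn in matplotlib 3.10.9.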

Additional observations from a re-analysis of the deposited data

How the results depend on the processing

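The calls of Kcnj8 and Abcc9 for Vivo against Vitro, and of Ndufa4l2 in both Vivo comparisons, held in every one of the 18 alternatives. For Vivo against Con the count of called members was 2, and 4 with DESeq2, with sample quality weights and with log2(FPKM + 1), since Kcnj8 and Abcc9 then passed; without 1 library it was 1 to 2. For Vitro against Con it was 0, and 3 with DESeq2 and 5 with sample quality weights; without 1 library it stayed at 0. The sign for Cox4i2, which passed nowhere, turned for Vivo against Con with sample quality weights (-0.47), log2(FPKM + 1) (-0.003), log2(FPKM + 0.1) (-0.006) and without Con replicate 3 (-0.06) or Vivo replicate 3 (-0.48). For Vivo against Vitro it turned with sample quality weights (-0.13) and without Vivo replicate 3 (-0.33), and for Vitro against Con without Vitro replicate 3 (0.03). Without 1 library its log2 change ran from -0.48 to 0.36, from -0.33 to 0.57 and from -0.53 to 0.03 in these comparisons. The cause was not tested.

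The labels do not pair same-numbered libraries. Their deviations from the group means correlated at -0.015 to 0.358 across genes, highest between Vitro and Con (0.0921 to 0.358). Between Vivo and Con the values were 0.0278 to 0.0573. In 13 of 18 cases a library correlated best with its own number in another group, a hint from the data alone. The 18 cases are not independent, since each pair of libraries enters from both sides. With the replicate number as a block, 4 members were called for Vivo against Con, Kcnj8 (adjusted p = 0.021) and Abcc9 (0.013) being added, Pdgfrb lost its call for Vivo against Vitro (adjusted p = 0.054), and Cox4i2 turned to -0.05 for Vivo against Con.

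Over all genes DESeq2 called 2046, 2077 and 298 for Vivo against Con, Vivo against Vitro and Vitro against Con. The edgeR or limma count ranged from 341 (without Con replicate 3) to 3458 (sample quality weights) for Vivo against Con, where it was 1203, from 661 to 2852 for Vivo against Vitro, where it was 1348, and from 0 to 2690 for Vitro against Con, where it was 4. The wider pericyte list had 5 to 11 higher genes for Vivo against Con and 6 to 11 for Vivo against Vitro. These counts include genes whose place among the tested genes leaned on Vivo, where they are high, so they are a description. Leaving out 1 library ended the Vivo against Con call of Enpp3 (Con replicate 3) and calls of Ddias, Esco2 and Rarb. Rgs5 was called in no comparison without the filter, and Higd1b had no counts to test.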
